A study of Mus musculus with 13 samples.

Results

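The levels of 10 transcripts of 8 human genes were measured in MDA-MB-231 tumours. They belong to RXRA, the receptor with which FXR pairs on DNA, to NR1H2, NR1H3 and VDR, other nuclear receptors that pair with it, to the surface bile acid receptor GPBAR1, to FGFR4 and KLB, which together receive the signal of the hormone FGF19, and to ABCA1, a cholesterol exporter. The transcripts were chosen by Ensembl ID, 2 each for VDR and GPBAR1 and 1 each for the other genes, and all 10 were found among the 244939 transcripts of the files. The rule that picks them is a list of IDs with no threshold on a measured value, though it was drawn up with earlier results of these data known. The files give no gene names, so the names used here are those that came with the list of IDs and were not checked against an annotation. Each value below is that of 1 transcript, not of the whole gene, whose other transcripts were not analysed here.

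Cells of this established human line, which models triple-negative breast cancer, had been injected into a mammary gland of female NSG mice aged 12 to 13 weeks. NSG mice lack mature lymphocytes, although the labels call them immunocompetent. All mice carried the same cells and received the same oral vehicle daily, 40% DMSO with 60% polyethylene glycol, and the treated group also received OCA (obeticholic acid, a synthetic bile acid and FXR agonist) at 30 mg per kg. RNA was sequenced from 7 vehicle and 6 OCA tumours, taken after 14 days of growth per the series text, with 34015674 to 49844746 estimated reads per vehicle library and 44150968 to 50596490 per OCA library. Nothing in the labels says that libraries of a group share an animal, and they were taken as separate tumours. Their label numbers form a lower series, with 3 vehicle and 4 OCA libraries, and an upper series, with 4 vehicle and 2 OCA libraries. No label says what these numbers stand for. Vehicle replicates 2, 3 and 5 had the lowest depth, and vehicle replicates 1 and 4 and OCA replicate 2 stood apart on the first principal component in earlier results from these data. Markers of the tumour line and of host cells were not analysed here, because the gene names supplied with the reference are of the mouse and 0 of the transcript IDs matched it.

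FXR is a nuclear receptor that binds bile acids and regulates genes of bile acid, lipid and glucose metabolism, mostly as a pair with an RXR. The LXR receptors (NR1H3 encodes LXR alpha and NR1H2 LXR beta) sense oxysterols, VDR binds active vitamin D and the bile acid lithocholic acid, and both also pair with RXR. GPBAR1, also called TGR5, carries the bile acid signal at the cell surface through cyclic AMP. In the liver, FGF19 released from the gut acts on FGFR4 with its co-receptor KLB (beta-klotho) to lower bile acid synthesis.

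RXRA was the highest of the 10 transcripts in every tumour, and those of GPBAR1 and the second VDR transcript were at or near 0. On the TPM scale, which is per transcript length, RXRA averaged 11.4 ± 2.66 (SD, n = 13), above 93.5% of the 163252 transcripts that had any read. ABCA1 came next at 1.09 ± 0.610 TPM, above 71.4% of them, and the first VDR transcript followed at 0.533 ± 0.242 TPM, above 61.5%. RXRA lay above ABCA1 in 13 of 13 libraries with ranges that did not overlap, at a mean 10.4 times higher. ABCA1 also lay above the first VDR transcript in 13 of 13 libraries, although their ranges overlapped. NR1H2 (0.235 ± 0.382 TPM), FGFR4 (0.204 ± 0.151), NR1H3 (0.150 ± 0.192) and KLB (0.110 ± 0.0555) formed a lower tier. Neighbours within that tier could not be ordered beyond their spread: NR1H2 was above FGFR4 in 5 libraries, FGFR4 above NR1H3 in 8, and NR1H3 above KLB in 5. KLB was above the first GPBAR1 transcript in 12 of 13 libraries.

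**Figure D1:**
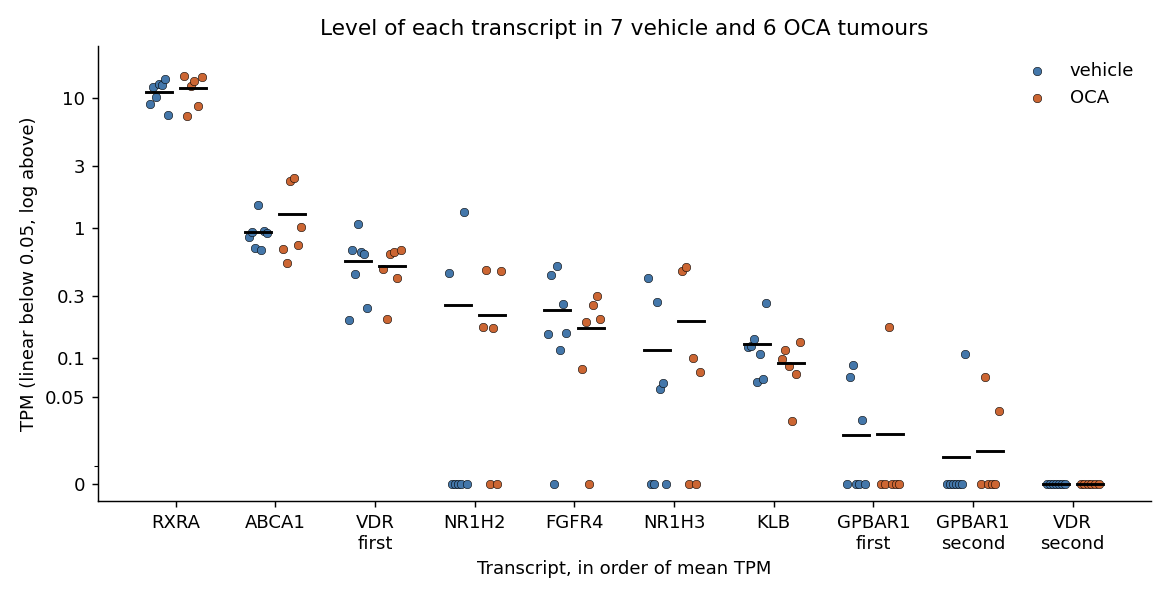
Level of each of the 10 transcripts in TPM (vertical axis, linear below 0.05 and logarithmic above), with 1 point per tumour and a black bar at the mean of the 7 vehicle (blue) or 6 OCA (orange) tumours. RXRA lies between 7.22 and 14.7 TPM, above all others, the 2 groups overlap for each transcript, and the second VDR transcript is at 0 throughout.

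The comparison of OCA with vehicle asks whether dosing with an FXR activator altered the transcripts of FXR's partners and of the other bile acid receptors in the tumours. None of the 6 transcripts that could be tested differed between the groups by edgeR's quasi-likelihood test, and the groups overlapped in TPM for all 10. For the second VDR transcript, at 0 in every library, the overlap held by construction. NR1H2, NR1H3, FGFR4 and both GPBAR1 transcripts were at 0 in tumours of both groups, so their ranges met at 0. Tested were RXRA, NR1H2, the first VDR transcript, FGFR4, KLB and ABCA1; the other 4 transcripts (NR1H3, both of GPBAR1 and the second of VDR) were removed by the filter on low counts. After adjustment over all 74973 transcripts tested, 0 of the 6 and 0 of all transcripts (0%) had p under 0.05, and the smallest adjusted p over all transcripts was 0.459. An unadjusted p under 0.05 was found for 0 of the 6 and for 2078 of all (2.77%), and 0.123% of all had groups that did not overlap in CPM. DESeq2 on the same counts called 12 transcripts and limma-voom called 0, with none of the 6 among them. Of the 6, DESeq2 gave an adjusted p only to RXRA (0.994) and ABCA1 (0.894), so it could not call NR1H2, VDR, FGFR4 or KLB. The median log2 fold change was -0.25 over the 6 transcripts and 0.01 over all, and the median size 0.37 and 0.22. In bulk tumour RNA, fewer cells that hold a transcript and less of it per cell cannot be told apart.

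**Figure D2:**
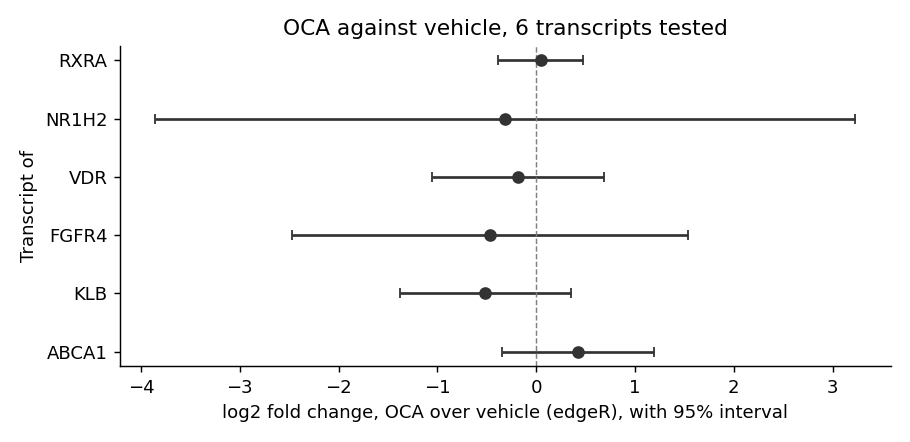
Log2 fold change of OCA over vehicle (horizontal axis) by edgeR for the 6 transcripts that passed the filter on low counts, with the 95% interval as a bar and 0 as a dashed line. All 6 intervals hold 0; RXRA has the narrowest, from -0.38 to 0.48, and NR1H2 the widest, from -3.85 to 3.23.

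RXRA, the common partner, was measured most precisely and did not differ detectably between the groups. Its transcript (ENST00000481739.2, 5537 bases) held 1814 to 3597 estimated reads per library. In vehicle tumours the lowest, median and highest levels were 7.39, 12.0 and 14.0 TPM, and in OCA tumours 7.22, 12.9 and 14.7 TPM. Vehicle replicate 7 and OCA replicate 2 were lowest, OCA replicates 1 and 6 were highest, and the groups covered nearly the same range. The mean was 11.8 ± 3.16 TPM in OCA (SD, n = 6) and 11.1 ± 2.36 in vehicle (SD, n = 7). By edgeR, OCA over vehicle was 0.05 on the log2 scale (SE 0.20, adjusted p = 1), with a 95% interval from 0.767-fold to 1.39-fold. Within the lower label series the mean difference in log2(TPM + 0.1) was 0.14 (exact permutation test, p = 0.571), and within the upper series it was -0.08 (p = 0.867).

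Of the 2 VDR transcripts on the list, only the first held estimated reads. The second (ENST00000395324.6, 4762 bases) had 0 estimated reads in all 13 libraries. By counting error alone, a count of 0 has an upper 95% limit of about 3 reads, or 0.0128 to 0.0185 TPM, in each. That limit does not cover how Salmon's model divides reads that could come from more than 1 transcript. The first (ENST00000549336.6, 4616 bases) had 43.0 to 233 reads. Its lowest, median and highest levels were 0.196, 0.630 and 1.06 TPM in vehicle tumours and 0.199, 0.553 and 0.675 TPM in OCA tumours. Vehicle replicate 4 was highest, and vehicle replicates 1 and 7 and OCA replicate 2 were lowest. The means were 0.506 ± 0.183 TPM in OCA (SD, n = 6) and 0.557 ± 0.296 in vehicle (SD, n = 7), with a log2 fold change of -0.18 (SE 0.40, 95% interval -1.05 to 0.68, edgeR adjusted p = 1). Without vehicle replicate 4 the estimate turned to 0.05. The sum of both VDR transcripts, which equals the first, gave a difference of -0.05 in log2(TPM + 0.1) (exact permutation test, two-sided, p = 0.897, adjusted p = 0.977 over 2 sums). Within the lower and upper label series that difference was -0.06 and -0.20 (exact p = 0.886 and 1.0).

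The LXR transcripts were found in some tumours and were at 0 in others. NR1H2 (ENST00000253727.10, 2416 bases) had no reads in 7 of 13 libraries. Reads were assigned to it in 2 of 7 vehicle tumours, with 49.3 in replicate 1 and 138 in replicate 6, and in 4 of 6 OCA tumours, with 17.2, 53.0, 17.7 and 44.5 in replicates 1, 2, 4 and 6. The median was 0 TPM in vehicle and 0.171 TPM in OCA tumours, while the means were 0.255 ± 0.504 (SD, n = 7) and 0.213 ± 0.212 (SD, n = 6), so median and mean order the groups differently. The log2 fold change was -0.31 with a 95% interval from 0.0691-fold to 9.39-fold (SE 1.64, edgeR adjusted p = 1). Limma-voom gave 1.61 (adjusted p = 0.947), so no direction is given for NR1H2. Within the upper label series both OCA tumours had reads and 1 of 4 vehicle tumours did (difference in log2(TPM + 0.1) of 1.89, exact permutation p = 0.0667, the smallest possible). Within the lower series the difference was -0.56 (exact p = 0.886).

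NR1H3 (ENST00000441012.7, 1852 bases) had reads in 4 of 7 vehicle and 4 of 6 OCA tumours, with at most 41.7 in a library. In vehicle tumours they numbered 33.2 in replicate 1, 21.5 in replicate 4, 3.32 in replicate 5 and 4.94 in replicate 6. In OCA tumours they numbered 34.5 in replicate 1, 41.7 in replicate 2, 7.64 in replicate 4 and 5.52 in replicate 6. The mean was 0.191 ± 0.231 TPM in OCA (SD, n = 6) and 0.114 ± 0.162 in vehicle (SD, n = 7), with full overlap from 0 upward. All 6 libraries with NR1H2 reads also had NR1H3 reads, 2 had NR1H3 reads only, and 5 had neither. In the 8 libraries with reads on either, NR1H3 was the higher in TPM in 4 libraries and NR1H2 in 4. The share of NR1H3 in the pair was not tested, because only 7 libraries held the 10 reads on the pair that the test asked for. Salmon's model divides ambiguous reads between the transcripts they could come from, so a 0 here can mean that the reads went to another transcript of the gene.

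**Figure D3:**
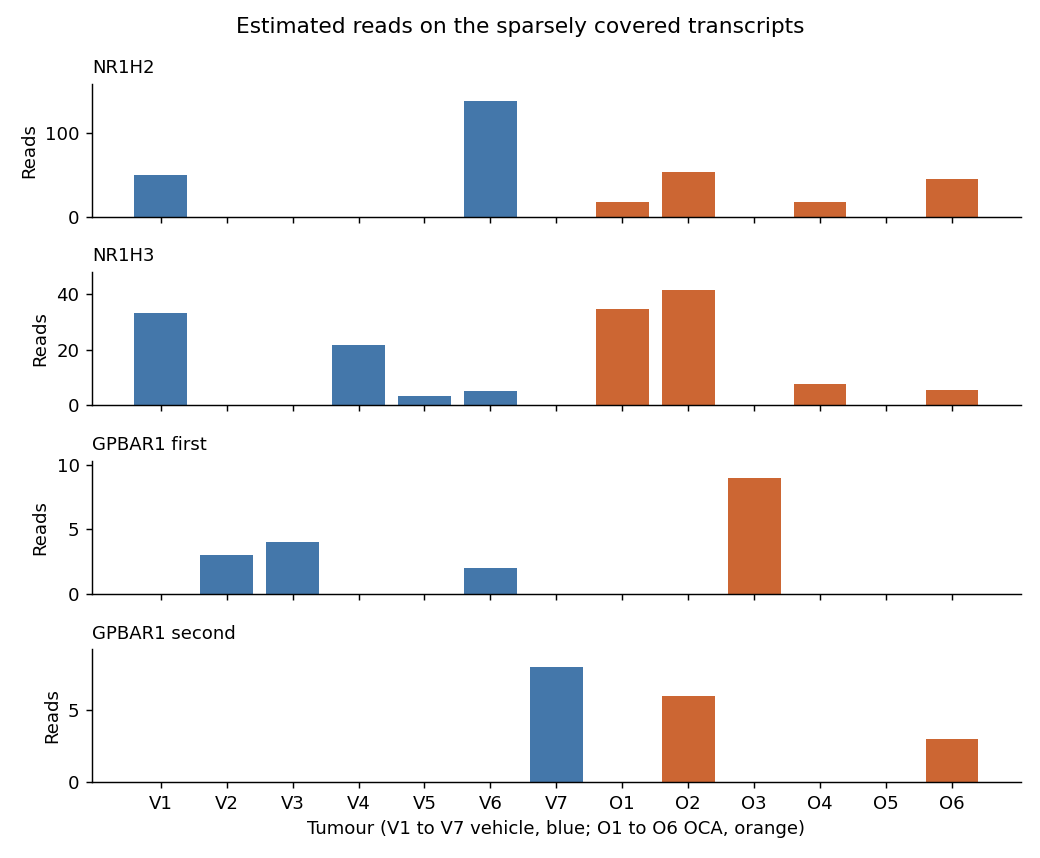
Estimated reads (vertical axes, from 0) on the NR1H2, NR1H3 and both GPBAR1 transcripts in each tumour, with vehicle replicates V1 to V7 in blue and OCA replicates O1 to O6 in orange. The libraries with NR1H2 reads are also libraries with NR1H3 reads, and no library has more than 9 reads on a GPBAR1 transcript.

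ABCA1, which LXR with RXR activates and which loads cholesterol onto apolipoprotein A-I, was highest in 2 OCA tumours and otherwise alike in range. Its transcript (ENST00000374736.8, 10408 bases) held 246 to 1178 reads per library. The lowest, median and highest levels were 0.674, 0.914 and 1.49 TPM in vehicle tumours and 0.538, 0.877 and 2.43 TPM in OCA tumours. OCA replicates 3 and 4 stood at 2.30 and 2.43 TPM, above every other tumour, while the other 4 OCA tumours, at 0.538 to 1.02 TPM, lay within or below the vehicle range. The OCA mean of 1.28 ± 0.852 TPM (SD, n = 6) was therefore above the vehicle mean of 0.931 ± 0.269 (SD, n = 7) although the OCA median was lower. The log2 fold change was 0.42 (SE 0.36, 95% interval 0.786-fold to 2.28-fold, edgeR adjusted p = 1). It ranged from 0.13 without OCA replicate 4 and 0.19 without OCA replicate 3 to 0.57 without vehicle replicate 4 and 0.58 without OCA replicate 2. It was 0.73 without the 3 libraries that stand apart (edgeR unadjusted p = 0.0753, adjusted p = 1) and 0.21 with the label series as a covariate. Both of these tumours are of the lower label series, where the mean was 1.54 TPM in OCA and 1.12 in vehicle tumours (difference in log2(TPM + 0.1) 0.25, exact permutation p = 0.686), while in the upper series it was 0.777 and 0.790 TPM (difference -0.07, exact p = 0.8). Of these 2 tumours, OCA replicate 3 had no reads on either LXR transcript, and OCA replicate 4 had 17.7 on NR1H2 and 7.64 on NR1H3. In all, 5 libraries had reads on neither, among them OCA replicate 5, where ABCA1 was at 0.739 TPM. Whether ABCA1 varied with the LXR transcripts was not tested.

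Both GPBAR1 transcripts on the list were near the limit of detection. The first (ENST00000519574.2, 1384 bases) had 3, 4 and 2 reads in vehicle replicates 2, 3 and 6 and 9 in OCA replicate 3. The second (ENST00000479077.5, 1869 bases) had 8 reads in vehicle replicate 7 and 6 and 3 in OCA replicates 2 and 6. In all, 35 reads fell on the 2 transcripts, in 4 of 7 vehicle and 3 of 6 OCA tumours, and no library had reads on both. Their sum was 0.0475 ± 0.0676 TPM in OCA (SD, n = 6) and 0.0434 ± 0.0457 in vehicle (SD, n = 7), a difference in log2(TPM + 0.1) of -0.0025 (exact permutation test, two-sided, p = 0.977, adjusted p = 0.977 over 2 sums). Within the lower and upper label series the difference was -0.14 and 0.22 (exact p = 0.657 and 0.6). The floor of 3 reads stands at 0.0511 to 0.0736 TPM for the first transcript, whose means were 0.0282 TPM in vehicle and 0.0286 in OCA tumours. For the second transcript it stands at 0.0358 to 0.0515 TPM, with means of 0.0152 TPM in vehicle and 0.0189 in OCA tumours. A fall or a small difference in either transcript was therefore not detectable at this depth.

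FGFR4 and KLB, receptor and co-receptor for FGF19, were both low, and their means were lower in OCA tumours, with groups that overlapped. FGFR4 (ENST00000292408.9, 3093 bases) had no reads in vehicle replicate 3 and OCA replicate 3 and 10.8 to 72.7 reads in the other 11 libraries. Its lowest, median and highest levels were 0, 0.155 and 0.508 TPM in vehicle tumours and 0, 0.194 and 0.298 TPM in OCA tumours, so the OCA median was the higher one and the vehicle tumours reached further up. The log2 fold change was -0.47 (SE 0.93, 95% interval 0.180-fold to 2.89-fold, edgeR adjusted p = 1). Single libraries moved it widely, to -0.15 without vehicle replicate 4, -0.21 without OCA replicate 3, -0.25 without vehicle replicate 2 and -0.70 without OCA replicate 5. Within the lower label series the difference in log2(TPM + 0.1) was -0.76 (exact permutation p = 0.314), and within the upper series it was 0.34 (exact p = 0.6).

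KLB (ENST00000257408.5, 6002 bases) had reads in every tumour, 10 to 71 per library. The lowest, median and highest levels were 0.0657, 0.121 and 0.266 TPM in vehicle tumours and 0.0364, 0.0922 and 0.133 TPM in OCA tumours. Vehicle replicate 7 was far above all others, OCA replicate 4 was lowest, and the other 11 tumours lay between 0.0657 and 0.140 TPM. The means were 0.0906 ± 0.0334 TPM in OCA (SD, n = 6) and 0.127 ± 0.0671 in vehicle (SD, n = 7), with a log2 fold change of -0.52 (SE 0.40, 95% interval 0.384-fold to 1.27-fold, edgeR adjusted p = 1). Without vehicle replicate 7 the estimate was -0.25. Within the lower label series the difference in log2(TPM + 0.1) was -0.33 (exact permutation p = 0.514), and within the upper series it was 0.01 (exact p = 0.867).

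Across tumours, the RXRA and first VDR transcripts varied together. With group means removed from log2(TPM + 0.1), Pearson's r over the 13 tumours was 0.832 (permutation p = 0.00072, adjusted p = 0.00432 over the 6 pairs of transcripts with at least 10 reads in every library), and Spearman's rho was 0.665 (permutation p = 0.0164, adjusted p = 0.0986). The tumours with least RXRA (OCA replicate 2 at 7.22, vehicle replicate 7 at 7.39, OCA replicate 5 at 8.57 and vehicle replicate 1 at 8.89 TPM) were also the 4 with least VDR, at 0.199, 0.242, 0.409 and 0.196 TPM. Without the 2 tumours farthest from the median of RXRA, OCA replicate 2 and vehicle replicate 7, r was 0.686 (permutation p = 0.018). It was 0.746 in the 7 tumours of the lower label series, 0.924 in the 6 of the upper series, and 0.849 without the 3 libraries that stand apart. After the total reads of each library were accounted for, r was 0.822, and after the share of reads on transcripts of at least 4000 bases it was 0.830. Among 40887 other transcripts with at least 10 reads in every library, 55 (0.135%) had an r with VDR as high, RXRA included, and 175 (0.428%) had an r with RXRA as high, VDR included. An r of at least that size but below 0 was found for 43 with VDR and 89 with RXRA. The 5th and 95th percentiles of r were -0.564 and 0.562 with VDR and -0.609 and 0.605 with RXRA. RXRA with VDR is the highest of the 6 pairs computed.

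**Figure D4:**
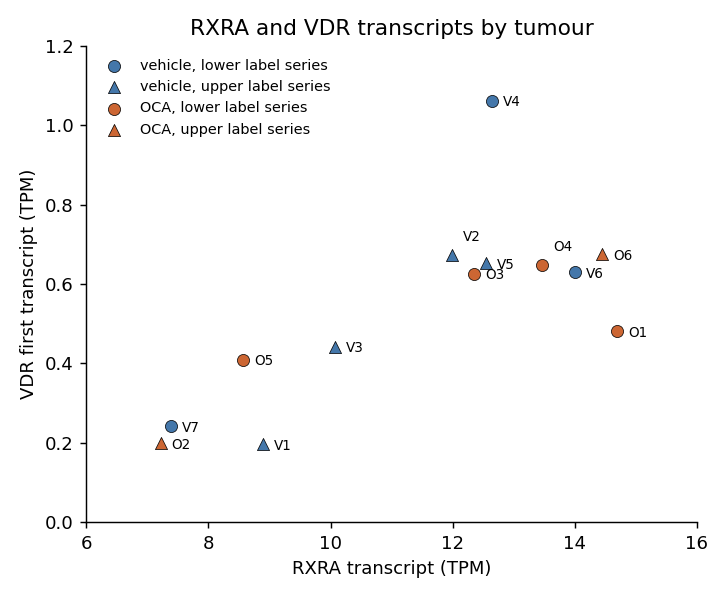
Level of the first VDR transcript (vertical axis, TPM) against that of RXRA (horizontal axis, TPM, from 6) in each of the 13 tumours, with vehicle in blue and labelled V, OCA in orange and labelled O, and the label series by marker shape. Tumours low in one are low in the other in both groups, and vehicle replicate 4 is highest in VDR at 1.06 TPM.

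The other 5 pairs among RXRA, VDR, KLB and ABCA1 did not pass after adjustment. The lowest was VDR with KLB, at r = -0.583 (permutation p = 0.0357, adjusted p = 0.0969) and rho = -0.368 (permutation p = 0.217, adjusted p = 0.26). That r was -0.722 without vehicle replicate 1 and OCA replicate 2, -0.860 in the lower label series and -0.0103 in the upper one. ABCA1 had an r of 0.53 with VDR (permutation p = 0.0612, adjusted p = 0.0969) and of 0.409 with RXRA (permutation p = 0.166, adjusted p = 0.166). These values are between single transcripts that share a library and its depth.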

How the data were processed

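Each file holds Salmon output for 1 library: an estimated count of reads and a TPM value per transcript, as deposited by the authors. FastQC, STAR and DESeq2 are also named, with no versions, in the submitters' processing notes, together with the human build GRCh38.p14. Neither the annotation release nor the handling of mouse reads is stated in the sources used here. The effect of reads from mouse cells was not tested. The transcripts, gene lists and tests were chosen with earlier results of these data known. Gene lists and markers that need human gene names were not analysed here, and no sequence or coordinate is given.

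Estimated counts were rounded and filtered with edgeR's filterByExpr (minimum count 10, minimum total 15), scaled by TMM, and compared by edgeR 4.0.16's robust quasi-likelihood test (R 4.3.3) over all 13 libraries, two-sided, with Benjamini-Hochberg adjustment over all transcripts and a threshold of 0.05. A standard error is the log2 fold change divided by the square root of F. The script was tested on simulated data. Deposited TPM values were used for levels, and log2(TPM + 0.1) for exact permutation tests over all 1716 splits and for correlations (100000 resamples). A pseudocount makes differences of low transcripts smaller. Alternatives were DESeq2 1.42.0, limma-voom (limma 3.58.1), other scalings and filters, the label series as a covariate and left-out libraries; the exact tests of single transcripts within a label series and on TPM without a log, and the 2 adjusted correlations, were added after seeing the data. All 8 genes are named, whatever their values. Replicates are numbered in accession order and pair nothing. Nothing says that libraries came from separate cultures of the line, so p-values measure the spread between these tumours.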

Additional observations from a re-analysis of the deposited data

Results flagged for a closer look

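In 5 of 18 groups of TPM values, the gap between 1 tumour and the rest passed Dixon's 95% limit. Chance flags about 1 in 20 groups of continuous values, a rate that does not hold for groups that are mostly at 0, which are 3 of the 5 (NR1H2 and both GPBAR1 transcripts). For ABCA1 it was vehicle replicate 4 at 1.49 TPM, with a gap of 0.662 of the group's range. For KLB it was vehicle replicate 7 at 0.266 TPM (gap 0.629 of the range), the tumour with the lowest RXRA of its group. For NR1H2 it was vehicle replicate 6 at 1.33 TPM (gap 0.660), where the other vehicle tumours were at 0 or, for replicate 1, 0.453 TPM. For the first GPBAR1 transcript it was OCA replicate 3 and for the second vehicle replicate 7, each the only tumour of its group with reads on that transcript, on 9 and 8 reads, so that the gap is 1.0 by construction. Vehicle replicate 4 also had the highest VDR and FGFR4 levels of all tumours, at 1.06 and 0.508 TPM.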

How the results depend on the processing

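No member transcript passed an adjusted p of 0.05 in any alternative run, and none of the 6 had an exact or unadjusted p under 0.05 in any. The exact permutation tests within the upper label series could not have gone under 0.05, because their smallest possible p was 0.0667. The count of 0 called transcripts over all became 12 with DESeq2, 1 without the 3 libraries apart on the first component, and 0 to 1 with each library left out. DESeq2 raised the 2078 transcripts with an unadjusted p under 0.05 to 3130, limma-voom to 3707 and the fit with no low-count filter to 16150. DESeq2 gave NR1H2, VDR, FGFR4 and KLB no adjusted p.

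Directions turned as follows, all without a call. Leaving out each library gave RXRA -0.04 to 0.16, VDR -0.34 to 0.05, the VDR sum -0.22 to 0.14 and the GPBAR1 sum -0.20 to 0.10. With no turn, it gave ABCA1 0.13 to 0.58, FGFR4 -0.70 to -0.15 and KLB -0.65 to -0.25. NR1H2 was -0.70 to -0.04 in the 11 of these runs that kept it. The runs without vehicle replicate 1 or 6, the only vehicle tumours with NR1H2 reads, gave no estimate, so a turn there could not be seen. RXRA fell below 0 when vehicle replicate 1 (-0.0078) or 7 (-0.040) or OCA replicate 1 (-0.028) or 6 (-0.016) was left out, and VDR was 0.048 when vehicle replicate 4 was. Without the 3 libraries apart, VDR was 0.050 and its sum 0.13. Without the 3 of lowest depth the VDR sum was 0.095, the GPBAR1 sum 0.079 and NR1H2 -1.10. NR1H2 was 1.61 by limma-voom and 0.41 on log2(TPM + 0.1). Within the upper label series RXRA was -0.076, NR1H2 1.89, FGFR4 0.34, KLB 0.0076, ABCA1 -0.068 and the GPBAR1 sum 0.22. The GPBAR1 sum was 0.0044 on log2(TPM + 1) and 0.012 on CPM. The cause of these turns was not tested. The filter of 1 CPM left NR1H2, FGFR4 and KLB out, and NR1H2 was also removed by the filter once vehicle replicate 1, vehicle replicate 6 or the 3 libraries apart were left out. No paired analysis was possible because replicate numbers follow accession order and no 2 libraries share a label number. The GPBAR1 transcripts had at most 9 reads in a library, and no alternative varied depth for single transcripts.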
